A study of Mus musculus with 6 samples.

Results

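The genes described here are 48 mouse genes for enzymes that remove superoxide and peroxides, repair oxidised proteins, make glutathione or attach it to other molecules, together with the Nrf2 sensor that controls many of them. They were chosen by gene symbol, and all 48 symbols had 1 row each among the 55076 rows of the expression tables. Total RNA was sequenced from the whole anterior prostate (AP) of 20-week-old male mice, in 3 OEx mice and 3 Ctrl mice (each labelled sample counted as 1 mouse). OEx mice (genotype label N1ICD-Oex) carried Pbsn-Cre and 1 Rosa26 N1ICD allele, so that Cre under the probasin promoter switched on the Notch1 intracellular domain in prostate epithelium. Ctrl mice (labelled wild type) are described in the methods of the study as carrying the same Rosa26 N1ICD allele without Cre. The question was how over-activated Notch1 signaling altered the expression of anti-oxidant genes in the AP.

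Reactive oxygen species are removed in steps. Superoxide dismutases turn superoxide into hydrogen peroxide, and catalase, the glutathione peroxidases (Gpx) and the peroxiredoxins (Prdx) turn peroxides into water or alcohols. Glutathione peroxidases draw their electrons from glutathione and most peroxiredoxins from thioredoxin, and both carriers are recharged with NADPH by glutathione reductase and the thioredoxin reductases. The transcription factor Nrf2 (gene Nfe2l2) switches on many of these genes through antioxidant response elements, and Keap1 marks Nrf2 for degradation.

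Levels are given in FPKM as deposited, a unit that divides the fragments of a gene by its length and by a measure of library size, so that genes can be compared per length. The divisor behind the deposited values was not the total of the reads recovered from them. It was 1.34, 1.35 and 1.22 times that total in OEx mice and 0.726, 0.730 and 0.815 times in Ctrl mice. Relative to Ctrl mice, the deposited scaling thus sets OEx values lower than library totals do. Recovered depth was 14762182 to 16998856 reads in OEx mice and 17233772 to 18650962 reads in Ctrl mice. Notch1 was at 41.9, 47.6 and 78.9 FPKM in OEx mice and 5.18, 5.55 and 3.34 FPKM in Ctrl mice. Within each group replicates 1 and 2 resembled one another far more than either resembled replicate 3, with a chi-square per degree of freedom across genes of 3.96 in OEx and 3.07 in Ctrl mice, against 57.6 to 98.6 for pairs with replicate 3. The labels do not say that the mice came from separate litters or cages, so p values measure the spread between these 6 samples. Replicates 1 and 2 were counted as separate mice. If they were not independent, the SE and FDR values below would be too small. The luminal markers Krt8, Krt18, Epcam and Cdh1 summed to 1004 to 1322 FPKM in OEx and 1498 to 1740 FPKM in Ctrl mice, with Krt18 called lower by the comparison below (log2 fold change -1.49) and Epcam and Cdh1 at 0.45 and 0.63 on the same scale. Ctrl replicate 3 held 16128 FPKM over 8 seminal vesicle genes, against at most 4.36 FPKM in any other mouse. Basal markers (3 of 3 genes called lower) summed to 3.72 to 5.32 FPKM in OEx and 99.4 to 122 FPKM in Ctrl mice, and smooth muscle markers (4 of 4 called lower) to 349 to 415 FPKM in OEx and 1037 to 2232 FPKM in Ctrl mice. No gene of these marker lists was at 0 in all 6 mice. The part of these cell types in the results below was not tested, and in whole tissue fewer cells of a type and less RNA per cell cannot be told apart.

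RNA levels do not show what acts on a gene, and the promoters are shown here as a reference for the genes that moved most and for the Nrf2 site. RefSeq promoters of GRCm38.p6 (the bases around each start, mostly upstream) were at hand for 41 of the 48 genes. The core of the antioxidant response element, searched as TGACNNNGC on both strands, was in a promoter of 10 of these 41 genes (24.4%) and of 14.0% of all 27025 genes with a promoter. Of the 10 genes, Mgst1 and Gstm5 were called higher and Sod1 and Msrb2 lower in OEx mice, by the comparison below. The matches are given with 10 bases on either side where the window allows, 5′ to 3′ on the strand of the gene, with the core in capitals.
Mgst1, chr6:138140461-138140489: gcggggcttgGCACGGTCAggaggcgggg
Gstm5, chr3:107895802-107895830: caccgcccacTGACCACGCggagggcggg
Gclm, chr3:122245413-122245441: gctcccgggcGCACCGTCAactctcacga
Txnrd1, chr10:82859104-82859132: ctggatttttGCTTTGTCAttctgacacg
Nfe2l2, chr2:75704885-75704913: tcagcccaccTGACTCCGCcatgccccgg
Srxn1, chr2:152105542-152105570: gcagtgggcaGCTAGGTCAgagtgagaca
Prdx1, chr4:116685456-116685484: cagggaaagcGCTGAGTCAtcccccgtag
G6pdx, chrX:74428919-74428947: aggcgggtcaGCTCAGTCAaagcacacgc
Sod1, chr16:90220696-90220724: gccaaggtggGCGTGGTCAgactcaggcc
Msrb2, chr2:19371665-19371685: cccgttggtgGCAGCGTCAtg

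The core bound by RBPJ, the DNA-binding partner of the Notch intracellular domain, was searched as TGGGAA on both strands and was in a promoter of 13 of the 41 genes (31.7%), against 28.3% of all genes. By the comparison below, it was in 3 of the 14 genes called lower with a promoter at hand and in 0 of the 3 called higher. The promoter of Gss, which had the strongest decrease among members with a promoter at hand, holds this core at 2 places, and of the 2 promoters listed for Mgst1, which had the strongest increase, 1 holds the antioxidant core and is shown, and the other does not. Capitals mark these matches, which are letters and not known binding sites. The promoters are printed on the strand of the gene.
Gss, chr2:155592761-155593060, minus strand: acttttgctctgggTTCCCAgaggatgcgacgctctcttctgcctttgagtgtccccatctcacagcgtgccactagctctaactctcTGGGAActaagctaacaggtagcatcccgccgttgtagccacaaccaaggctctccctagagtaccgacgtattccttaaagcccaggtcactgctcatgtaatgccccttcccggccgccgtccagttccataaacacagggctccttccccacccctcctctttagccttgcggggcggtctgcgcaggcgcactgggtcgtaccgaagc
Mgst1, chr6:138140277-138140576, plus strand: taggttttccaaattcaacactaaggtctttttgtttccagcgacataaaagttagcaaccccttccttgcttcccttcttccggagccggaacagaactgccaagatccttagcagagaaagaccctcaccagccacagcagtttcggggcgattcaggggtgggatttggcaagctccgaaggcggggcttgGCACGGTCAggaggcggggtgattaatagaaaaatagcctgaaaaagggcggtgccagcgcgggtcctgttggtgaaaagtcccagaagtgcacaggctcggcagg

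With the deposited scaling, 16 genes of the 48 fell in OEx mice, Prdx6 and the glutathione synthetase gene Gss by the most, and Mgst1, Gstm5 and Cat rose. The test was limma on log2(FPKM + 1), fitted over 12833 genes that averaged 1 FPKM or more, and log2FC below is the OEx minus Ctrl difference on that scale with its standard error (SE). A gene was called, after the criteria of the study, with a Benjamini-Hochberg FDR under 0.05 and a fold change above 2. Of the 48 genes, 46 passed the filter, and Gpx2 and Mgst2 lay under it, with 10 to 25 reads in every mouse. Of the 46, 16 were called lower (34.8%, against 15.7% of all tested genes) and 3 higher (6.52%, against 12.9%). The counts by role and by site below stand beside these shares of all tested genes, and many rest on few genes. Without the fold criterion, 26 were lower and 8 higher (36.5% and 30.7% of all tested genes). The groups did not overlap for 38 of the 46 genes, as for 72.4% of all tested genes, and with 3 mice per group the smallest two-sided p of an exact permutation test on 1 gene is 0.1. The difference was below 0 for 31 members, as for 53.1% of all tested genes. The median log2 fold change was -0.67 over the members and -0.078 over all tested genes.

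These genes are more abundant than most, and abundant genes were lower more often. Among genes that averaged 10 FPKM or more, 14 of 34 members (41.2%) were called lower, against 28.3% of all such genes, and 3 (8.82%) higher, against 7.38%. The median log2 fold change was -0.86 over these members and -0.55 over all such genes, a smaller gap than without this floor. The floor of 10 FPKM does not match the members and the other genes for abundance above it. The split also moved with the scaling between mice. With library totals in place of the deposited scaling, under which the median gene moved from -0.078 to 0.56 in log2FC, 3 members were called lower (4.59% of all tested genes) and 9 higher (30.6%). With a trend on exon length and GC content removed, 7 members were called lower (11.4% of all tested genes) and 3 higher (9.59%).

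**Figure D1:**
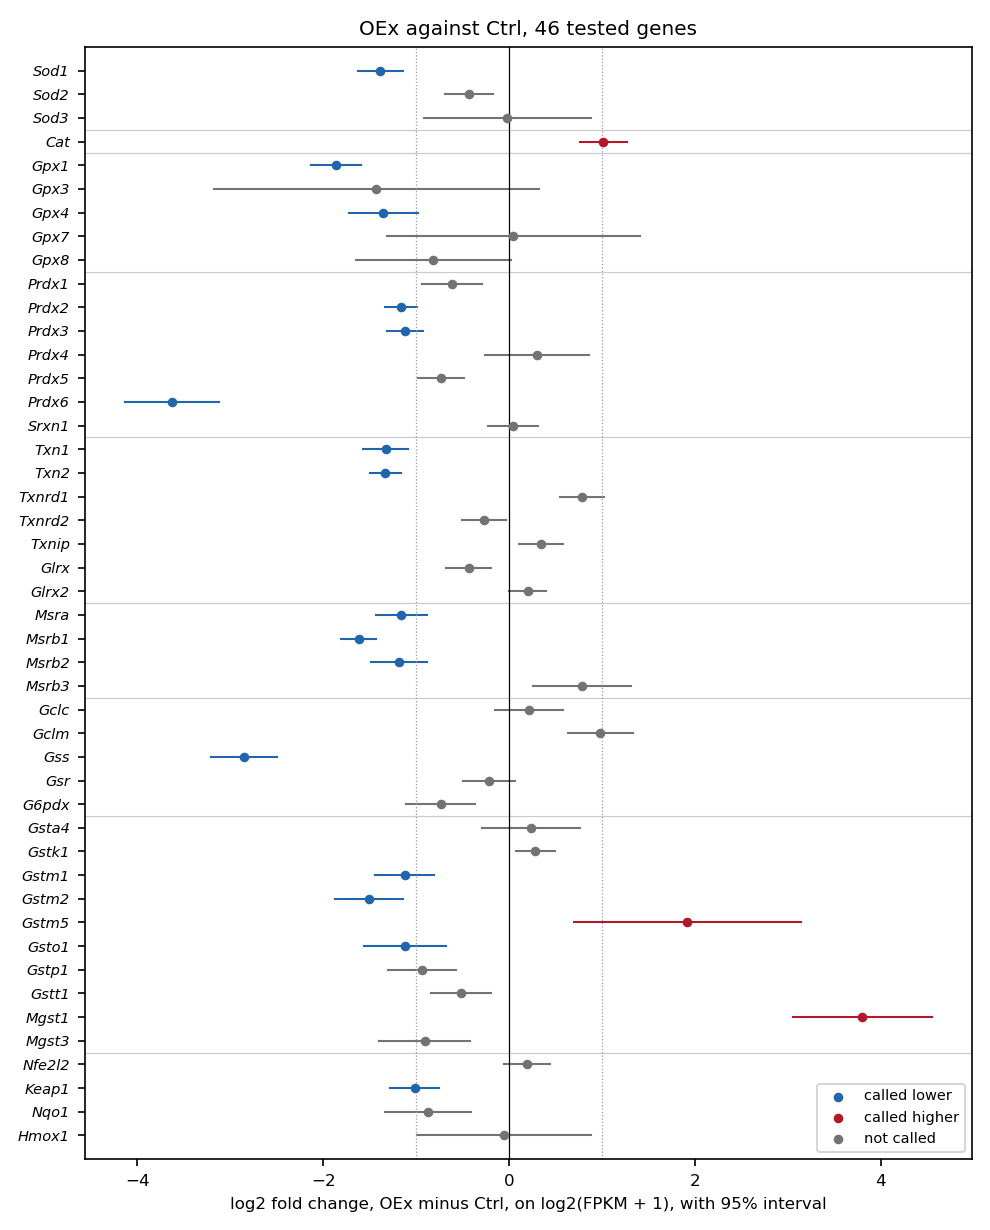
Log2 fold change of each tested gene, OEx minus Ctrl, on log2(FPKM + 1), with the 95% interval of the limma fit, n = 3 mice per group. Genes are in order of role with lines between roles, dotted lines mark a fold change of 2 in either direction, and colour marks the 16 genes called lower and the 3 called higher.

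**Figure D2:**
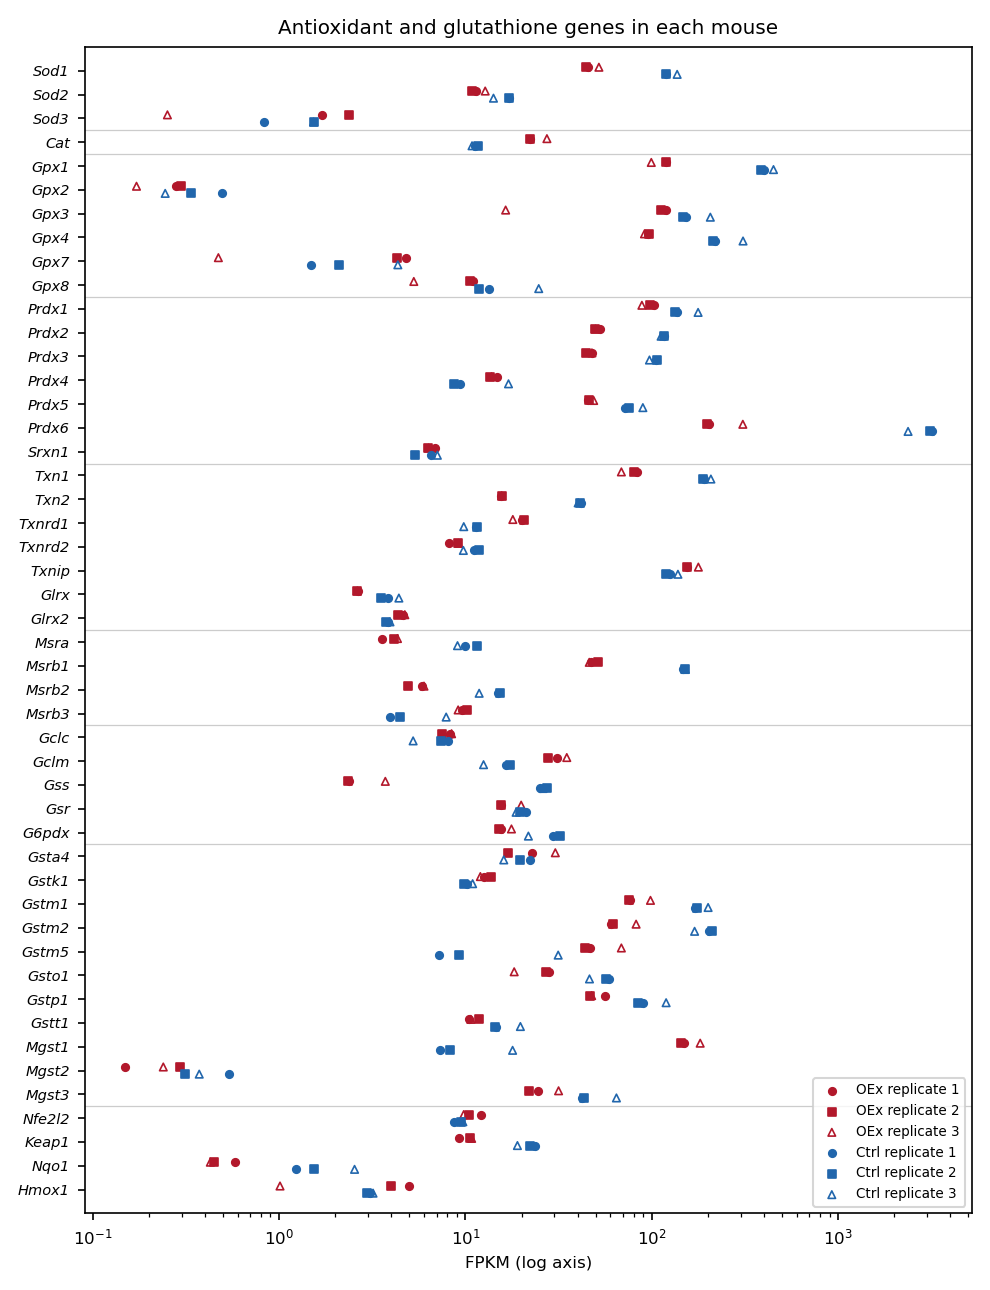
FPKM of the 48 genes in each mouse on a log axis, 3 OEx mice in red and 3 Ctrl mice in blue. Prdx6 lies rightmost in all 6 mice, and the open red triangle of OEx replicate 3 lies far left of the other OEx mice for Gpx3, Gpx7, Sod3 and Hmox1.

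The peroxiredoxins reduce peroxides at a cysteine, and 3 of the 7 genes of this group were called lower and none higher. Prdx6, on chromosome 1 from 161240112 to 161251219, encodes the peroxiredoxin that takes electrons from glutathione and also acts on phospholipids. It was at 202, 197 and 308 FPKM in OEx mice and 3173, 3101 and 2371 FPKM in Ctrl mice. Every OEx mouse was far below every Ctrl mouse, with a mean 12.2 times higher in Ctrl mice. The log2 fold change was -3.63 (SE 0.212, limma FDR 3.88e-05), and -2.84 with library totals, where it was also called. With 173097 to 192884 reads in Ctrl mice, Prdx6 was the most abundant of the 48 genes in all 6 mice.

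The cytosolic peroxiredoxin Prdx2 was at 52.7, 49.8 and 49.9 FPKM in OEx mice and 116, 116 and 112 FPKM in Ctrl mice (log2FC -1.16, SE 0.0732, limma FDR 4.56e-05). Prdx3, the mitochondrial peroxiredoxin, was at 48.0, 44.3 and 47.7 FPKM in OEx and 105, 107 and 97.2 FPKM in Ctrl mice (log2FC -1.12, SE 0.0809, limma FDR 6.78e-05). Both groups were tight and far apart for these genes, but both lost the call with library totals (-0.39 and -0.35) and with the length and GC trend removed. Prdx2 is abundant in red blood cells, whose 5 marker genes (4 called lower) summed to 11.0 to 25.4 FPKM in OEx mice and 35.8 to 155 FPKM in Ctrl mice. The part of red blood cells in the Prdx2 values was not tested. Prdx2 also shares 173 exon bases with Junb and 177 with Rnaseh2a on the other strand, and whether reads were counted by strand is not given in the sources used here.

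Prdx1, the main cytosolic form, was at 102, 98.3 and 88.5 FPKM in OEx mice and 136, 133 and 177 FPKM in Ctrl mice (log2FC -0.61, limma FDR 0.00650). Prdx5, found in mitochondria and peroxisomes, was at 45.7, 45.9 and 48.8 FPKM in OEx and 71.9, 75.0 and 89.6 FPKM in Ctrl mice (log2FC -0.73, limma FDR 9.21e-04). The groups did not overlap for either gene, both changed by less than the fold criterion, and with library totals the values were 0.17 and 0.04. Prdx4, the form of the endoplasmic reticulum, was at 14.8, 13.6 and 13.8 FPKM in OEx and 9.37, 8.73 and 17.0 FPKM in Ctrl mice, with overlapping groups (log2FC 0.30, 95% interval -0.26 to 0.86, limma FDR 0.285). Srxn1, the sulfiredoxin that repairs over-oxidised peroxiredoxins and an Nrf2 target, was at 6.90, 6.30 and 6.35 FPKM in OEx and 6.52, 5.40 and 7.07 FPKM in Ctrl mice (log2FC 0.04, 95% interval -0.22 to 0.31, limma FDR 0.757). Prdx4 and Srxn1 did not pass with the deposited scaling, and with library totals Prdx4 was called higher at 1.02 and Srxn1 was at 0.72 and not called.

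Among the superoxide dismutases, the cytosolic copper-zinc enzyme Sod1 fell, the mitochondrial manganese enzyme Sod2 changed by less than the criterion and the secreted Sod3 was low in every mouse. Sod1 was at 45.5, 44.4 and 52.0 FPKM in OEx mice and 119.6, 119 and 137 FPKM in Ctrl mice, and its log2 fold change of -1.39 (limma FDR 7.15e-05) was -0.61 and not called with library totals. Sod2 was at 11.3, 10.9 and 12.8 FPKM in OEx and 17.1, 17.1 and 14.1 FPKM in Ctrl mice (log2FC -0.43, limma FDR 0.0115), with a sign that turned to 0.30 with library totals and a call at -1.33 with the length and GC trend removed. The ratio of Sod1 to Sod2 within a mouse, which no scaling between mice can move, was 4.01, 4.09 and 4.07 in OEx and 7.01, 6.96 and 9.67 in Ctrl mice. Thus Sod1 was lower relative to Sod2 in every OEx mouse (exact permutation p = 0.1, the smallest possible). This did not hold with the length and GC trend removed, where Sod1 was at -1.41 and Sod2 at -1.33. The ratio of Sod1 to Sod2 and the ratios below were chosen after their values were seen. Their p values therefore describe the separation and do not test it. Sod3 was at 1.70, 2.37 and 0.252 FPKM in OEx and 0.834, 1.55 and 1.53 FPKM in Ctrl mice, with overlapping groups (log2FC -0.02, 95% interval -0.92 to 0.88, limma FDR 0.971).

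Catalase, the peroxisomal enzyme that breaks down hydrogen peroxide without a carrier, went the other way. Cat, on chromosome 2 from 103453849 to 103485160, was at 22.3, 22.1 and 27.4 FPKM in OEx mice and 11.3, 11.7 and 10.9 FPKM in Ctrl mice, with 1161 to 1319 and 369 to 431 reads. Each OEx mouse was above each Ctrl mouse (log2FC 1.01, SE 0.105, limma FDR 2.40e-04). The value lay at the fold criterion, so Cat lost the call without OEx replicate 3 (0.92) or Ctrl replicate 3 (0.99), and it was 1.75 with library totals. The ratio of Cat to Gpx1 within a mouse was 0.187, 0.185 and 0.275 in OEx mice and 0.0282, 0.0302 and 0.0241 in Ctrl mice.

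Of 5 tested glutathione peroxidases, Gpx1 and Gpx4 were called lower and none higher. Gpx1, the cytosolic selenoenzyme on chromosome 9 from 108338903 to 108340343, was at 119, 119 and 99.4 FPKM in OEx mice and 400.2, 387 and 449.7 FPKM in Ctrl mice. It was 3.66 times higher in Ctrl mice, and with a log2 fold change of -1.86 (limma FDR 4.13e-05) it kept its call with library totals (-1.09) and with the length and GC trend removed (-1.14). Gpx4, which reduces lipid peroxides in membranes and guards against ferroptosis, lies on chromosome 10 from 80047166 to 80056439. It was at 95.4, 96.9 and 91.4 FPKM in OEx mice and 219, 212 and 309 FPKM in Ctrl mice (log2FC -1.35, SE 0.154, limma FDR 3.49e-04). It was not called with library totals (-0.58) or with the length and GC trend removed (-0.64), and a pseudogene, Gpx4-ps2, shares 733 bases with it at 99.7% identity, so its reads may be split.

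Gpx3, the secreted plasma enzyme, was at 119, 112 and 16.4 FPKM in OEx mice and 152, 146 and 206 FPKM in Ctrl mice. OEx replicate 3 stood far below all other mice, and the comparison did not pass (log2FC -1.43, SE 0.729, limma FDR 0.124), with a value of -0.52 without that mouse. Gpx7 and Gpx8 encode peroxidases of the endoplasmic reticulum. Gpx7 was at 4.78, 4.31 and 0.473 FPKM in OEx and 1.49, 2.10 and 4.34 FPKM in Ctrl mice (log2FC 0.05, limma FDR 0.949). Gpx8 was at 11.0, 10.6 and 5.29 FPKM in OEx and 13.4, 11.9 and 24.7 FPKM in Ctrl mice (log2FC -0.81, limma FDR 0.0756). Gpx2 had at most 0.496 FPKM in any mouse.

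OEx replicate 3 had the lowest value of the 6 mice for Gpx3, Gpx7, Gpx8 and Sod3. In the same mouse the 4 fibroblast markers Col1a1, Col1a2, Dcn and Lum summed to 20.6 FPKM, against 164 and 166 FPKM in the other OEx mice and 43.3 to 76.9 FPKM in Ctrl mice. The 5 immune markers summed to 9.72 FPKM in OEx replicate 3, against 181 and 164 FPKM in the other OEx mice and 23.2 to 57.6 FPKM in Ctrl mice. Neither list held a called gene, but only 2 of the 5 immune markers passed the filter and could be called. The part of fibroblasts and immune cells in these values was not tested.

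In the thioredoxin system the 2 thioredoxins fell while their cytosolic reductase and the thioredoxin-binding protein Txnip did not. Txn1, the cytosolic thioredoxin on chromosome 4 from 57943373 to 57956411, was at 82.8, 79.8 and 68.7 FPKM in OEx mice and 189.9, 187 and 208 FPKM in Ctrl mice (log2FC -1.33, SE 0.102, limma FDR 8.17e-05). Txn2, the mitochondrial thioredoxin, was at 15.5, 15.8 and 15.7 FPKM in OEx and 41.5, 41.0 and 40.3 FPKM in Ctrl mice (log2FC -1.33, SE 0.0691, limma FDR 3.00e-05). With library totals the values were -0.55 and -0.58 and neither was called, and Txn2 kept its call with the length and GC trend removed.

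Txnrd1, the cytosolic thioredoxin reductase, was at 20.0, 20.6 and 18.0 FPKM in OEx mice and 11.4, 11.5 and 9.80 FPKM in Ctrl mice, higher at an FDR under 0.05 but under the fold criterion (log2FC 0.78, limma FDR 5.46e-04, and 1.51 and called with library totals). Txnrd2, the mitochondrial reductase, was at 8.21, 9.12 and 9.18 FPKM in OEx and 11.1, 11.8 and 9.75 FPKM in Ctrl mice (log2FC -0.27, limma FDR 0.0460, and 0.44 with library totals). Txnip, which binds and inhibits thioredoxin, was at 155, 154 and 178 FPKM in OEx and 126, 120 and 138 FPKM in Ctrl mice. Within a mouse, the ratio of Txnrd1 to Txn1 was 0.242, 0.258 and 0.262 in OEx mice and 0.0602, 0.0616 and 0.0472 in Ctrl mice, and that of Txnip to Txn1 was 1.88, 1.93 and 2.59 in OEx mice and 0.662, 0.638 and 0.666 in Ctrl mice. Neither pair of ranges overlapped (exact permutation p = 0.1 each). The glutaredoxins, small thiol reductases that use glutathione, were low, with Glrx at 2.66, 2.62 and 2.63 FPKM in OEx and 3.86, 3.53 and 4.40 FPKM in Ctrl mice (log2FC -0.43, limma FDR 0.00801, and 0.16 with library totals). The mitochondrial Glrx2 was at 4.61, 4.37 and 4.73 FPKM in OEx and 3.85, 3.76 and 3.94 FPKM in Ctrl mice (log2FC 0.20, limma FDR 0.0685).

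The methionine sulfoxide reductases, which restore oxidised methionine in proteins, showed 3 of 4 genes called lower. Msrb1, the selenoprotein of this family on chromosome 17 from 24736642 to 24742778, was at 47.0, 51.2 and 46.2 FPKM in OEx mice and 146, 151 and 151 FPKM in Ctrl mice (log2FC -1.62, SE 0.0786, limma FDR 2.64e-05). Msra, which acts on the other stereoisomer of the oxidised residue, was at 3.56, 4.12 and 4.32 FPKM in OEx and 9.94, 11.5 and 9.07 FPKM in Ctrl mice (log2FC -1.16, limma FDR 2.09e-04). Msrb2, the mitochondrial form, was at 5.82, 4.92 and 5.99 FPKM in OEx and 15.0, 15.3 and 11.9 FPKM in Ctrl mice (log2FC -1.19, SE 0.126, limma FDR 2.61e-04). The other gene of the family, Msrb3, lay higher in every OEx mouse, at 9.65, 10.2 and 9.14 FPKM against 3.93, 4.46 and 7.88 FPKM in Ctrl mice (log2FC 0.78, limma FDR 0.0180). With library totals none of the 3 lower genes was called (-0.48 to -0.84) and Msrb3 was called higher at 1.46. With the length and GC trend removed, Msra (-1.22) kept its call, and Msrb1 (-0.92) and Msrb2 (-0.58) lost it.

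Glutathione is made in 2 steps, by glutamate-cysteine ligase (catalytic subunit Gclc, modifier subunit Gclm) and then by glutathione synthetase (Gss), and Gss was called lower while neither ligase subunit was called. Gss, on chromosome 2 from 155563181 to 155592810, was at 2.37, 2.36 and 3.72 FPKM in OEx mice and 25.2, 27.3 and 26.1 FPKM in Ctrl mice, with 280 to 397 and 1865 to 2345 reads. It was 9.31 times higher in Ctrl mice (log2FC -2.85, SE 0.148, limma FDR 3.00e-05), and was called lower with library totals (-2.18) and with the length and GC trend removed (-3.05). Gss shares exon bases on the other strand with Acss2 (395 bases) and with 2 antisense genes. Gclm was at 31.0, 27.8 and 35.0 FPKM in OEx mice and 16.4, 17.3 and 12.5 FPKM in Ctrl mice, higher at an FDR under 0.05 and just under the fold criterion (log2FC 0.98, SE 0.145, limma FDR 0.00111), with a value of 1.73 and a call with library totals and a value of 0.32 and no call with the length and GC trend removed. Gclc was at 8.31, 7.52 and 8.43 FPKM in OEx and 8.11, 7.42 and 5.24 FPKM in Ctrl mice, with overlapping groups (log2FC 0.21, 95% interval -0.15 to 0.58, limma FDR 0.251).

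The ratio of Gclm to Gss within a mouse was 13.1, 11.8 and 9.41 in OEx mice and 0.651, 0.633 and 0.480 in Ctrl mice. Gclm thus exceeded Gss in every OEx mouse and lay below it in every Ctrl mouse, per length of gene and whatever the scaling between mice (exact permutation p = 0.1). Gsr, the reductase that recycles glutathione, did not pass (log2FC -0.22, limma FDR 0.142). G6pdx, which feeds NADPH to that reductase from the pentose phosphate pathway, was at 15.5, 15.2 and 17.7 FPKM in OEx and 29.4, 32.3 and 21.8 FPKM in Ctrl mice (log2FC -0.74, limma FDR 0.00528, and 0.01 with library totals).

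The glutathione transferases, which attach glutathione to lipid products and foreign compounds, moved in both directions, with 3 of 10 tested genes called lower and 2 higher. Mgst1, the microsomal transferase that also acts as a peroxidase on lipid peroxides, lies on chromosome 6 from 138140316 to 138156755. It was at 149.5, 143 and 182 FPKM in OEx mice and 7.31, 8.25 and 17.9 FPKM in Ctrl mice, 14.2 times higher in OEx mice on average. The groups were far apart (log2FC 3.80, SE 0.310, limma FDR 1.02e-04), with 4.54 under library totals and 3.99 with the length and GC trend removed. Mgst1 ranked 37th by FPKM among the 48 genes in Ctrl replicates 1 and 2, 26th in Ctrl replicate 3, and 2nd or 3rd in OEx mice.

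Gstm5, on chromosome 3 from 107895821 to 107898686, was at 46.6, 43.6 and 68.7 FPKM in OEx mice and 7.26, 9.19 and 31.5 FPKM in Ctrl mice (log2FC 1.92, SE 0.510, limma FDR 0.0143). The value of Ctrl replicate 3, the mouse with seminal vesicle genes, lay well above those of the other Ctrl mice, and the fold change was 2.53 without it. The call was lost when replicates 1 and 2 were averaged as 1 mouse (1.71). Of its neighbours in the same cluster, Gstm1 was at 76.1, 75.7 and 98.4 FPKM in OEx and 171, 174 and 201 FPKM in Ctrl mice (log2FC -1.12, limma FDR 4.09e-04). Gstm2 was at 60.6, 61.9 and 82.4 FPKM in OEx and 203, 211 and 169.7 FPKM in Ctrl mice (log2FC -1.51, limma FDR 2.12e-04). The ratio of Gstm5 to Gstm2 within a mouse was 0.768, 0.704 and 0.833 in OEx mice and 0.0357, 0.0435 and 0.185 in Ctrl mice, so members of 1 gene cluster differed whatever the scaling.

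Gsto1, the omega-class transferase, was at 28.2, 27.2 and 18.3 FPKM in OEx and 59.1, 56.6 and 46.3 FPKM in Ctrl mice (log2FC -1.12, limma FDR 0.00178), and was not called without OEx replicate 3 (-0.93). With library totals and with the length and GC trend removed, Gstm1, Gstm2 and Gsto1 stayed below 0 and none was called. Gstp1, the pi-class enzyme, changed by just under the criterion, at 55.9, 46.8 and 47.6 FPKM in OEx and 89.2, 84.6 and 119 FPKM in Ctrl mice (log2FC -0.94, limma FDR 0.00163). Its transcript is 98.2% identical to that of Gstp2 over 707 bases, so the split of reads between the 2 genes is uncertain. Mgst3 and Gstt1 were also lower at an FDR under 0.05 (-0.91 and -0.52, the latter 0.21 with library totals), Gstk1 was higher (0.28), and Gsta4 did not pass (0.24, limma FDR 0.367).

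Of the Nrf2 sensor pair, the message of Keap1 fell and that of Nfe2l2 did not pass the test. Keap1, on chromosome 9 from 21229730 to 21239361, was at 9.22, 10.5 and 10.8 FPKM in OEx mice and 23.7, 22.3 and 19.0 FPKM in Ctrl mice (log2FC -1.02, SE 0.111, limma FDR 2.97e-04). It lay at the criterion and lost the call without OEx replicate 1 (-0.95), Ctrl replicate 1 (-0.95) or Ctrl replicate 2 (-0.99), with library totals (-0.28) and with the length and GC trend removed (-0.83). Nfe2l2 was at 12.1, 10.5 and 9.79 FPKM in OEx and 8.68, 9.48 and 9.69 FPKM in Ctrl mice (log2FC 0.20, 95% interval -0.05 to 0.44, limma FDR 0.133). The ratio of Nfe2l2 to Keap1 within a mouse was 1.32, 0.996 and 0.907 in OEx mice and 0.366, 0.425 and 0.510 in Ctrl mice, without overlap (exact permutation p = 0.1).

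Neither stress enzyme of this group was called. Nqo1, a quinone reductase, was low, at 0.581, 0.451 and 0.428 FPKM in OEx and 1.24, 1.54 and 2.54 FPKM in Ctrl mice, with 12 to 18 and 24 to 60 reads. Its log2 fold change of -0.87 (limma FDR 0.00658) was called at -1.62 with a pseudocount of 0.1 in place of 1. Nqo1 averaged 1.13 FPKM over all mice and passed the filter of 1 FPKM only through its Ctrl values (mean 1.77, against 0.487 in OEx mice). Neither fit is therefore support for a decrease of this gene. Hmox1, the inducible heme oxygenase, was at 5.01, 3.97 and 1.01 FPKM in OEx and 3.06, 2.96 and 3.19 FPKM in Ctrl mice (log2FC -0.05, limma FDR 0.909), again with the lowest value in OEx replicate 3.

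Grouped by where the proteins act, 13 of 29 tested genes for proteins of the cytosol, nucleus or several sites were called lower and 1 higher, with a median log2 fold change of -0.87. Among 8 genes for mitochondrial proteins, 3 were called lower (Prdx3, Txn2 and Msrb2) and none higher, with a median of -0.58. Among 6 tested genes for proteins of the endoplasmic reticulum, none was called lower and 1 (Mgst1) higher, with a median of -0.005. Over all tested genes, 15.7% were called lower and 12.9% higher, with a median of -0.078. With library totals the medians were -0.17, 0.17 and 0.55, against 0.56 over all tested genes. The mitochondrial group thus turned sign but stayed below the median of all tested genes. Differences between the groups were not tested. Of the 7 genes for selenoproteins, Gpx1, Gpx4 and Msrb1 were called lower, Txnrd1 was higher at an FDR under 0.05, and Gpx2 was under the filter.

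The 48 genes together summed to 1845, 1793 and 1920 FPKM in OEx mice and 5880, 5788 and 5438 FPKM in Ctrl mice, 3.08 times higher in Ctrl mice on average. Most of this gap was Prdx6, which made up 10.9%, 11.0% and 16.0% of the sum in OEx mice and 54.0%, 53.6% and 43.6% in Ctrl mice. Without Prdx6, the other 47 genes summed to 1617 ± 24.4 FPKM (SD, n = 3) in OEx and 2820 ± 214 FPKM (SD, n = 3) in Ctrl mice. As a share of the FPKM of all genes in a mouse, the 48 genes held 0.711 ± 0.0093% (SD, n = 3) in OEx and 1.17 ± 0.128% (SD, n = 3) in Ctrl mice. The 47 genes without Prdx6 held 0.621 ± 0.0261% (SD, n = 3) in OEx and 0.577 ± 0.00324% (SD, n = 3) in Ctrl mice. On that scale the order of the groups without Prdx6 was turned, with every OEx mouse above every Ctrl mouse (exact permutation p = 0.1).

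**Figure D3:**
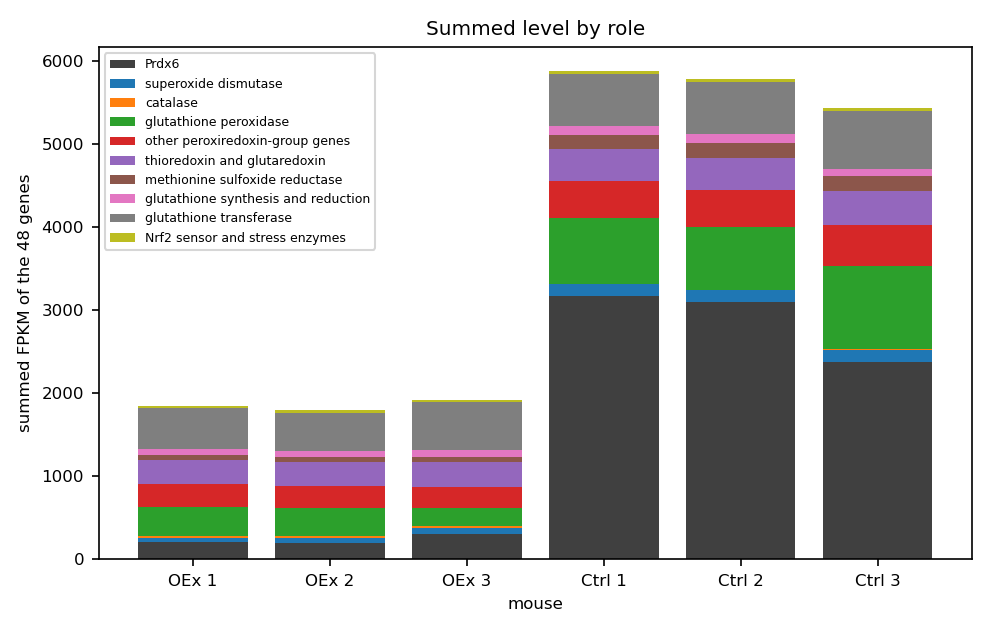
Summed FPKM of the 48 genes in each mouse, stacked by role with Prdx6 as its own block at the base. Sums lie between 1793 and 1920 FPKM in OEx and between 5438 and 5880 FPKM in Ctrl mice, and the Prdx6 block accounts for most of the gap.

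The 20 most abundant genes of a mouse took 27.3% to 34.1% of the reads in Ctrl and 7.29% to 9.02% in OEx mice, and library totals gave a larger log2FC than the deposited scaling for all 46 members. This shift follows from the scaling, which applies a common factor to all genes of a mouse. Only Prdx6, Gss and Gpx1 were called lower with library totals, and Mgst1, Gstm5, Cat, Gclm, Txnrd1, Msrb3, Txnip, Prdx4 and Gstk1 were called higher. Relative to the median of all genes under the same scaling, 44 of the 46 members kept their sign, and the median of the members lay 0.46 below that of all genes with library totals and 0.59 below it with the deposited scaling. A common factor leaves such relative values nearly unmoved, so their agreement does not test the scaling. These gaps are also not matched for abundance. Of the 19 calls, 6 were kept with library totals and 9 with the length and GC trend removed. Prdx6, Gss, Gpx1, Mgst1, Gstm5 and Cat were called in both.

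**Figure D4:**
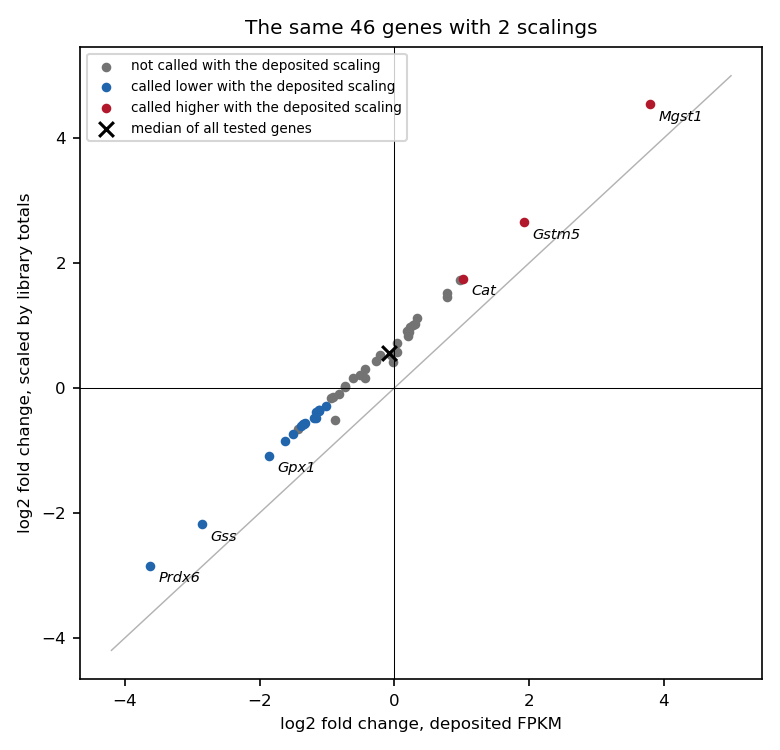
Log2 fold change of the 46 tested genes with the deposited FPKM (horizontal) and after scaling by library totals (vertical), with the line of equality and a cross at the median of all tested genes. All points lie above the line, because the scaling applies a common factor to all genes of a mouse. Prdx6, Gss and Gpx1 are the lower genes that stay below -1.

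A second list held 143 genes around the same pathway (supply of cysteine and NADPH, selenium handling, other transferases and thioredoxin-like proteins, Nrf2 partners, iron and oxidant-producing enzymes). Of these, 142 had 1 row, 117 were tested, 33 were called lower (28.2%, against 15.7% of all tested genes) and 7 higher (5.98%, against 12.9%). With library totals 12 were called lower and 21 higher, where 4.59% and 30.6% of all tested genes were. Among those that averaged 10 FPKM or more, 26 of 61 (42.6%) were called lower, against 28.3% of all such genes. In cysteine and glutathione supply, 4 of 12 tested genes were called lower and 1 higher. Chac1, which breaks down glutathione, was at 1.32 to 1.71 FPKM in OEx mice and 68.0, 66.9 and 67.2 FPKM in Ctrl mice (log2FC -4.77, limma FDR 7.33e-06). Cbs, which makes cystathionine on the way to cysteine, was at 111, 113 and 166 FPKM in OEx and 6.62, 5.66 and 5.45 FPKM in Ctrl mice (log2FC 4.22, limma FDR 1.98e-05). Both were called in the same direction with library totals (-4.14 and 4.94). The cystine carrier Slc7a11 had at most 0.227 FPKM in any mouse.

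In the group listed under NADPH supply, 6 of 14 tested genes were called lower and none higher. Me2, a mitochondrial malic enzyme, was at 3.37, 3.90 and 4.15 FPKM in OEx and 21.8, 22.4 and 17.2 FPKM in Ctrl mice (log2FC -2.15). The part of Me2 in NADPH supply was not tested. Of 19 genes of selenium handling and other selenoproteins, 7 were called lower and 1 higher with the deposited scaling, and none lower and 5 higher with library totals. Selenow was at 134, 151 and 125 FPKM in OEx and 375, 399 and 682 FPKM in Ctrl mice (log2FC -1.77). Selenop, the selenium carrier, was at 69.8, 62.2 and 67.2 FPKM in OEx and 20.5, 23.7 and 31.6 FPKM in Ctrl mice (log2FC 1.38). Selenop was the 1 gene of the group called higher with the deposited scaling.

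Of the other transferases, 2 of 10 tested genes were called lower and 2 higher. They include Ptges, the prostaglandin E synthase (log2FC -1.18, and not called with library totals or with the length and GC trend removed), and Gstm7 at 17.4, 17.3 and 16.5 FPKM in OEx and 2.70, 2.70 and 5.26 FPKM in Ctrl mice (2.04). Of the thioredoxin-fold proteins, 4 of 20 were called lower, with the mitochondrial glutaredoxin Glrx5 furthest at -1.43, and 1 (Tmx3, 1.56) higher, against 15.7% and 12.9% of all tested genes. With library totals none of them was called lower and 3 higher, and with the length and GC trend removed Tmx3 was at 0.24 and not called. Of the Nrf2 partners and linked enzymes, 7 of 21 were called lower and none higher. Akr1b3, the aldose reductase, was at 25.7, 25.1 and 45.1 FPKM in OEx and 264, 262 and 253 FPKM in Ctrl mice (log2FC -3.03, and -2.26 with library totals). Of the heme and iron genes 3 of 8 were called lower, among them the ferritin light chain Ftl1, at 175, 162 and 140 FPKM in OEx and 551, 504 and 598 FPKM in Ctrl mice (log2FC -1.79). Of 13 tested oxidant-producing enzymes, none was called lower and 2 were called higher (15.4%, against 12.9% of all tested genes). These were Noxa1 and Cybb, both under 5 FPKM on average, with Ctrl means of 0.219 and 0.527 FPKM and OEx means of 3.65 and 2.84 FPKM. Both passed the filter of 1 FPKM only through their OEx values. The group listed 24 enzymes, and those under the filter could not be called. These calls therefore cannot show whether the group as a whole was higher. Cybb, the catalytic subunit of the phagocyte NADPH oxidase, was at 3.95, 3.48 and 1.10 FPKM in OEx and 0.275, 0.399 and 0.906 FPKM in Ctrl mice, lowest among OEx mice in replicate 3 as the immune marker sum was. It was called in 2 of the 6 fits that left out a mouse and not with the length and GC trend removed (0.67), and the part of immune cells in it was not tested.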

How the data were processed

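Each deposited table holds the FPKM of every gene in 1 mouse. Its making is described as an in-house pipeline, and the submitters' processing notes name HISAT2 2.0.5, featureCounts 1.5.0-p3, StringTie 1.3.3b and CASAVA. The genome build, the strand setting and the fragments counted in the library size are not given in the sources used here. Reads were recovered from FPKM and GENCODE M21 (GRCm38) exon length, with 53636 rows matched. Between 96.9% and 97.5% of values under 1000 reads came out whole within 0.05 reads. Coordinates are those of GRCm38. The step was tested on simulated data. Recovered reads serve for depth and alternatives, and no molecular identifiers are named in the sources used here.

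The groups were tested on log2(FPKM + 1) using limma 3.58.1 (R 4.3.3), eBayes with an intensity trend, and the group as the only term. The 12833 rows averaging 1 FPKM or more entered, and the added 1 shrinks differences of low genes. The fit was tested on simulated data. Fits were repeated with other scalings, filters, pseudocounts (0.1 and 0.5), limma-voom on recovered reads, a replicate block, each mouse left out, and a lowess trend (span 0.3) on exon length and on GC content of the longest transcript removed from each mouse. A pair of further fits were chosen after seeing the data. Near copies were searched with blastn (at least 95% identity over 100 bases), and 12 members had one. Other steps used Python 3.11.15 (pandas 2.3.3, numpy 2.4.6, matplotlib 3.10.9).

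The members and lists were chosen with earlier results of these data known. Genes given with every mouse are the called members, the dismutase, catalase, Gpx, Prdx and thioredoxin groups, Sod1, Sod2, Gpx1 and Msra. Of the second list, the gene with the largest change in each direction and role with a mean of at least 5 FPKM was named. Msrb3, Gclm, Gclc, G6pdx, Gstp1, Nfe2l2, Nqo1, Hmox1, Slc7a11, Noxa1, Cybb and the ratios were chosen after their values were seen. Nnt had 2 rows and was left out.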

Additional observations from a re-analysis of the deposited data

How the results depend on the processing

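The number of members called lower (16) and higher (3) depended most on the scaling. It was 3 lower and 9 higher with library totals, 2 and 12 with the same sum of FPKM in every mouse, 3 and 6 with that sum without the 20 most abundant genes, and 9 and 6 with upper-quartile scaling. It was 26 and 8 without the fold criterion, and 7 lower with the length and GC trend removed. For the second list (33 lower and 7 higher), the counts were 12 and 21 with library totals, 10 and 24 with the same sum of FPKM, 15 and 19 without the 20 most abundant genes, 11 higher with upper-quartile scaling, and 61 and 20 without the fold criterion. With each mouse left out, 16 to 17 members were called lower and 2 to 4 higher, and 32 to 34 and 6 to 9 genes of the second list. Without replicate 3 of both groups, chosen after seeing the data, 16 and 3 members were called, and with replicates 1 and 2 averaged 16 and 3. These were not all the same members. Of the 19 calls, 18 were kept without replicate 3, where Cat lost its call at 0.89. With replicates 1 and 2 averaged 17 were kept, and other members were called in place of those lost. The cause of these moves was not tested.

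The sign of members that were not called turned in some fits. With library totals the log2 fold change was 0.30 for Sod2, 0.41 for Sod3, 0.17 for Prdx1, 0.0366 for Prdx5, 0.44 for Txnrd2, 0.16 for Glrx, 0.53 for Gsr, 0.0128 for G6pdx, 0.21 for Gstt1 and 0.53 for Hmox1. With the same sum of FPKM it was 0.41 for Sod2, 0.48 for Sod3, 0.0175 for Gpx8, 0.29 for Prdx1, 0.16 for Prdx5, 0.55 for Txnrd2, 0.26 for Glrx, 0.64 for Gsr, 0.13 for G6pdx, 0.33 for Gstt1 and 0.61 for Hmox1. Without the 20 most abundant genes in that sum it was 0.18 for Sod2, 0.34 for Sod3, 0.0437 for Prdx1, 0.33 for Txnrd2, 0.0679 for Glrx, 0.41 for Gsr, 0.10 for Gstt1 and 0.43 for Hmox1, and with upper-quartile scaling 0.14 for Sod3, 0.0491 for Gsr and 0.16 for Hmox1. With the length and GC trend removed it was 0.24 for Sod3, -0.52 for Glrx2, 0.14 for Gsr, 0.18 for Gstt1 and 0.59 for Hmox1. Gpx7 was at -0.11 with a pseudocount of 0.1, -0.00542 with 0.5, -0.10 with limma-voom and -0.43 with replicates 1 and 2 averaged, where Srxn1 was at -0.00281. With mice left out, Sod3 ran from -0.31 to 0.41, Gpx7 from -0.30 to 0.68, Srxn1 from -0.0533 to 0.11 and Hmox1 from -0.36 to 0.43, and without replicate 3 of both groups Sod3 was at 0.48, Gpx7 at 0.997, Srxn1 at 0.13, Gsta4 at -0.0837 and Hmox1 at 0.45.

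Replicate numbers run from 1 to 3 in both groups, but same-numbered mice are not said to be related and their deviations correlated at -0.230 on average. With the replicate number as a block, 16 members were called lower and 3 higher, and 32 and 6 genes of the second list. The block changed no call among the members, but without the fold criterion Sod2, Txnrd2 and Gstk1 no longer passed (limma FDR 0.0523, 0.105 and 0.0889).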
